A study of Mus musculus with 6 samples.

Results

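Ikbkb, Nfkbib, Cysltr1 and Laptm5 are 4 genes of inflammatory signalling whose brain RNA was compared between naloxone-treated and saline-treated mice. Their probes were selected by gene symbol in the platform annotation, and each gene had 1 probe, so these are 4 of the 6146 genes measured. All 4 genes had a measured ratio on all 6 arrays, so all passed the filter, which asked for 2 arrays per strain. The genes were picked with their mean ratios in the NY1DD strain in view. Their NY1DD values, and the difference between strains that contains them, are therefore given as a description without a test, and the test is read in C57BL/6J alone. The standard error (SE) of that test pools the spread of both strains, so the NY1DD spread enters it.

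The study hybridised total RNA of brain from male mice aged 9 weeks to 6 two-colour BMAP cDNA microarrays. RNA taken 10 min after naloxone, an antagonist of opioid receptors, carried Cy5, and RNA taken 10 min after saline carried Cy3, on every array. NY1DD mice, a transgenic line used as a model of sickle cell disease, filled 3 arrays, with NY1DD mice given saline in the other channel. The remaining 3 arrays paired naloxone and saline in wild-type C57BL/6J mice. No dyes were swapped, so a dye bias of a probe cannot be told apart from naloxone in a strain mean. The labels do not state whether arrays stand for separate animals or pools, so all tests measure the spread between arrays, which may be technical. A number in the titles, of unstated meaning, is shared by C57BL/6J replicates 1 and 2 and never by both strains.

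NF-kappaB is a family of transcription factors held in the cytoplasm by inhibitors, the IkB proteins. An IkB kinase complex phosphorylates these inhibitors after signals from cytokine and innate immune receptors, the inhibitors are then ubiquitinated and degraded, and the freed factors switch on inflammatory genes. Ikbkb encodes the catalytic subunit IKK-beta, and Nfkbib encodes the inhibitor IkB-beta. Cysltr1 encodes a G protein-coupled receptor for the cysteinyl leukotrienes, lipid mediators made from arachidonic acid that contract smooth muscle and make vessels leaky. Laptm5 encodes a transmembrane protein of late endosomes and lysosomes found in blood-forming cells and, in the brain, in microglia, the resident macrophages.

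Promoter sequences are shown for Nfkbib and Laptm5, the members found in the RefSeq promoter table (GRCm38.p6), and for Nfkbia, the gene of IkB-alpha, which is the other IkB gene measured here and a textbook target of NF-kappaB. Each line gives the 250 bases before the annotated start, 5′ to 3′ on the strand of the gene: Nfkbib at chr7:28766645-28766894 (minus strand), Nfkbia at chr12:55492648-55492897 (minus strand) and Laptm5 at chr4:130913066-130913315 (plus strand). Capitals mark, in the IkB genes, matches to GGGNNNNNCC, a loose form of the NF-kappaB site, and in Laptm5 the match to GAGGAA, the PU box bound by the myeloid factor Spi1, both read on either strand.
Nfkbib: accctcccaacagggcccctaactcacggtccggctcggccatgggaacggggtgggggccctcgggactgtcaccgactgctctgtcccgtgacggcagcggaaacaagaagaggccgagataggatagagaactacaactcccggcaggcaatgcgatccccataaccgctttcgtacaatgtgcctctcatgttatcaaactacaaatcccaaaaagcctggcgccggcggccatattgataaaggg
Nfkbia: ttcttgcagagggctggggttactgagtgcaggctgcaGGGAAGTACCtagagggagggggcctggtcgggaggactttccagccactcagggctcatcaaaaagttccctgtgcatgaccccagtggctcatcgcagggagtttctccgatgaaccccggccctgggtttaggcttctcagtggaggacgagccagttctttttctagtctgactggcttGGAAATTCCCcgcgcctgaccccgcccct
Laptm5: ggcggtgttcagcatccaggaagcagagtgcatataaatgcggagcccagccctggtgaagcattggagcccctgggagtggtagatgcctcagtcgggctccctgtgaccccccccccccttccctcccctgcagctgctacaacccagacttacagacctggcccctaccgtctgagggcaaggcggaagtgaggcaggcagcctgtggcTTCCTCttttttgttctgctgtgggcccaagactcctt
The loose NF-kappaB pattern matched 2 times in the Nfkbia window, 0 times in the Nfkbib window and 0 times in the Laptm5 window, and it occurred in 45.8% of all 32851 promoter windows of this length. The PU box matched 1 time in Laptm5, on the opposite strand, and 0 times in the IkB windows. It occurred in 23.3% of all windows. A match is a description of letters, and a missing match says only that the letters are not in this window. The Nfkbib window held 17 CG dinucleotides and was 58.0% G or C, the Laptm5 window held 5 and was 61.2% G or C, and the median window in the table was 52.4% G or C.

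Values are log2 ratios of the 2 channels, likely naloxone over saline. Although Cy5 carried the naloxone RNA, which channel was the numerator is not stated. If it was saline, all signs given here turn over. Each array was centred on its median. Each value was also taken after subtracting the median of all probes in the same well position (row and column, over all plates) on that array. Between 11155 and 11413 probes were usable per array, and the SD of the log2 ratios ran from 0.43 to 0.59. The signal of either channel was not analysed here, so how bright the 4 probes were over background is unknown. For the same reason the labelled tissue could not be checked against the levels of its markers. In brain RNA, a change in the number of cells of a type and a change in RNA per cell cannot be told apart.

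Ikbkb lay below 0 on all 6 arrays, and its values spread widely. On the NY1DD arrays (replicates 1, 2 and 3) the log2 ratios were -0.99, -2.39 and -0.45. On the C57BL/6J arrays they were -0.10, -0.82 and -0.10. Replicate 2 was the lowest array in each strain, and the strains overlapped, because C57BL/6J replicate 2 lay below NY1DD replicate 3. The NY1DD mean was -1.28 ± 1.00 (SD, n = 3), and without replicate 2 it was -0.72. The C57BL/6J mean was -0.34 ± 0.41 (SD, n = 3, SE of the model 0.35, limma adjusted p = 0.960), with a model-based 95% interval of -1.17 to 0.49, and without C57BL/6J replicate 2 it was -0.10. The test therefore did not separate the C57BL/6J mean from 0, and the interval spans values on both sides.

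The Ikbkb probe sits in row b, column 6 of plate 49. The median of the probes in that well position was -0.40 on NY1DD replicate 2, the array where Ikbkb was lowest, and between -0.11 and 0.16 on the other arrays. After subtraction of these medians the NY1DD values were -1.08, -1.99 and -0.51 (mean -1.19 ± 0.75, SD, n = 3). The C57BL/6J values became -0.26, -0.75 and 0.00 (mean -0.34 ± 0.38, SD, n = 3, limma adjusted p = 0.930), so replicate 3 no longer lay below 0. Within its own well position, 5 of 103 other probes were lower than Ikbkb on NY1DD replicate 2, and 56 of 108 were lower on C57BL/6J replicate 3. Over all probes, 0.662% were lower than Ikbkb on NY1DD replicate 2 and 11.7% on NY1DD replicate 3.

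Nfkbib showed small ratios, below 0 on all 6 arrays. On the NY1DD arrays its log2 ratios were -0.73, -0.29 and -0.18, a mean of -0.40 ± 0.29 (SD, n = 3). On the C57BL/6J arrays they were -0.02, -0.10 and -0.19, a mean of -0.10 ± 0.09 (SD, n = 3, SE of the model 0.15, limma adjusted p = 0.985), with a 95% interval of -0.46 to 0.26. NY1DD replicate 1 stood lowest, and without it the NY1DD mean was -0.23. The strains overlapped by 0.02, with C57BL/6J replicate 3 just below NY1DD replicate 3.

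The Nfkbib probe is in row a, column 3 of plate 112, and its well medians were at or below 0 on every array, from -0.21 on NY1DD replicate 1 to -0.01 on C57BL/6J replicate 1. Well median subtraction moved the NY1DD values to -0.52, -0.26 and -0.11 (mean -0.30 ± 0.21, SD, n = 3). The C57BL/6J values moved to -0.01, -0.07 and -0.05 (mean -0.04 ± 0.03, SD, n = 3, limma adjusted p = 0.992). With this step the strains no longer overlapped, but the gap between them was 0.04, and 4.84% of features had all NY1DD arrays below all C57BL/6J arrays. On NY1DD replicate 1, the lowest array, 17 of 118 other probes of the same well position were lower than Nfkbib.

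Cysltr1 had the lowest mean of the 4 genes in each strain, although Ikbkb was lower on NY1DD replicate 2. On the NY1DD arrays the log2 ratios were -2.16, -1.41 and -2.87, which correspond to 4.46-fold, 2.66-fold and 7.33-fold less signal in the naloxone channel than in the saline channel. On the C57BL/6J arrays they were 0.01, -0.89 and -0.38. Every NY1DD array lay below every C57BL/6J array, and the strains were 0.53 apart at their closest. Among features with values on all 6 arrays, 4.20% had all NY1DD arrays below all C57BL/6J arrays, and nothing is read from the place of Cysltr1 among them because its NY1DD values chose it.

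The NY1DD mean of Cysltr1 was -2.15 ± 0.73 (SD, n = 3), and between -2.52 and -1.78 when 1 NY1DD array was left out. Counted from the lowest value, it ranked 10 of 11251 probes on NY1DD replicate 3, 56 of 11104 on replicate 1 and 314 of 11172 on replicate 2. The C57BL/6J mean was -0.42 ± 0.45 (SD, n = 3, SE of the model 0.29, limma adjusted p = 0.913), with a 95% interval of -1.10 to 0.26. It depended on single arrays, being -0.18 without C57BL/6J replicate 2 and -0.63 without C57BL/6J replicate 1. The difference, NY1DD minus C57BL/6J, was -1.73 (SE 0.41).

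Cysltr1 lies in row b, column 12 of plate 113. Its well median was -0.37 on NY1DD replicate 2 and between -0.18 and 0.03 on the other arrays, so the position shift was largest on the NY1DD array where Cysltr1 was least negative. With well medians subtracted, the NY1DD values were -2.04, -1.05 and -2.81 (mean -1.97 ± 0.88, SD, n = 3). The C57BL/6J values were -0.02, -0.71 and -0.33 (mean -0.35 ± 0.35, SD, n = 3, limma adjusted p = 0.941). The strains stayed apart, by 0.34, and the difference was -1.61 (SE 0.44), while 4.84% of features were apart in this direction. Cysltr1 was lower than all 114 other probes of its well position on NY1DD replicate 1 and all 113 on NY1DD replicate 3, but 14 of 110 were lower on NY1DD replicate 2.

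Laptm5 was the gene with positive ratios, above 0 on all 6 arrays and the most even of the 4 in NY1DD. The NY1DD log2 ratios were 0.54, 0.70 and 0.36, a mean of 0.54 ± 0.17 (SD, n = 3), or 1.45-fold. The C57BL/6J log2 ratios were 0.14, 0.33 and 0.34, a mean of 0.27 ± 0.11 (SD, n = 3, SE of the model 0.14), or 1.21-fold. This C57BL/6J mean had an unadjusted p of 0.0866 and a limma adjusted p of 0.801, with a 95% interval of -0.05 to 0.59, and so did not pass. The NY1DD arrays all lay above the C57BL/6J arrays, but NY1DD replicate 3 and C57BL/6J replicate 3 were only 0.02 apart.

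The Laptm5 probe is in row e, column 9 of plate 113, the plate that also carries Cysltr1. Its well medians on the NY1DD arrays were 0.11, 0.15 and 0.05, all above 0, and those on the C57BL/6J arrays were 0.01, -0.01 and -0.03. Subtracting them gave NY1DD values of 0.43, 0.56 and 0.31 (mean 0.43 ± 0.12, SD, n = 3) and C57BL/6J values of 0.13, 0.33 and 0.38 (mean 0.28 ± 0.13, SD, n = 3, unadjusted p = 0.0531, limma adjusted p = 0.695). The strains then overlapped, and the difference between them went from 0.27 (SE 0.19) to 0.15 (SE 0.17), and to 0.08 without C57BL/6J replicate 1 or 0.09 without NY1DD replicate 2. Subtracting the median of each source plate instead raised the difference to 0.39 (SE 0.20), with 0.37 as the lowest NY1DD value and 0.31 as the highest C57BL/6J value. How many of all features had NY1DD above C57BL/6J throughout was not counted for this step. Nothing is read from this order, because Laptm5 was picked with its NY1DD mean in view. The median of plate 113 was -0.19 on NY1DD replicate 1 and between -0.01 and 0.09 on the other arrays.

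**Figure D1:**
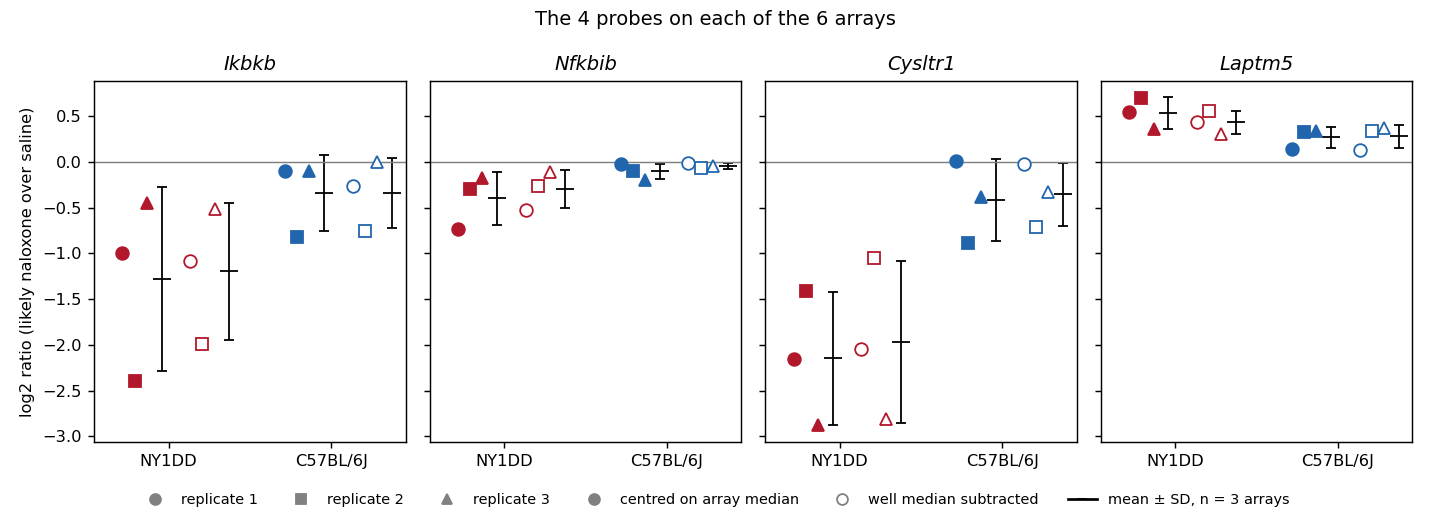
Log2 ratio (likely naloxone over saline, vertical axis) of the probes of Ikbkb, Nfkbib, Cysltr1 and Laptm5 on each array of NY1DD (red) and C57BL/6J (blue), centred on the array median (filled) and after subtraction of the well median (open), with mean ± SD of 3 arrays. The Cysltr1 strains stay apart in both versions, while those of Ikbkb overlap in both. All NY1DD arrays lay below all C57BL/6J arrays for 4.20% of features without and 4.84% with well median subtraction. Nothing is read from the place of the 4 genes, which were picked with their NY1DD means in view.

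**Figure D2:**
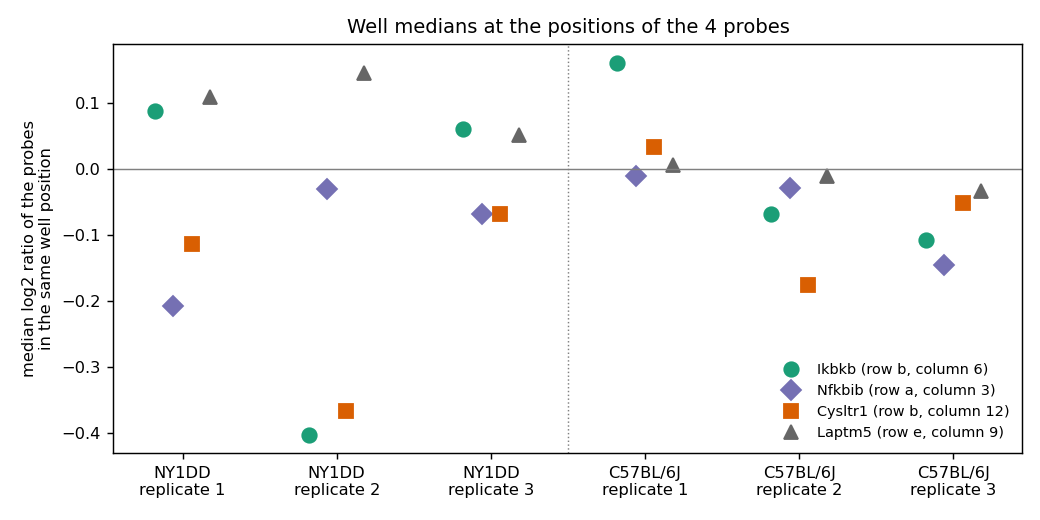
Median log2 ratio of all probes in the same well position as each of the 4 probes (vertical axis), on each of the 6 arrays. The positions of Ikbkb and Cysltr1 reach -0.40 and -0.37 on NY1DD replicate 2, and the Laptm5 position is above 0 on the 3 NY1DD arrays.

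In C57BL/6J, the comparison that did not choose the genes, 0 of the 4 passed at a limma adjusted p of 0.05, with or without well median subtraction. This was the background rate too, as 0 of 9685 features (0%) passed there, and 671 (6.93%) had an unadjusted p under 0.05, none of them among the 4. Ikbkb and Nfkbib lay below 0 on all 3 C57BL/6J arrays, as did 17.0% of features, and Laptm5 lay above 0 on all 3, as did 14.2%. With well median subtraction, Nfkbib and Cysltr1 lay below 0 on all 3 (16.1% of features) and Laptm5 above 0 on all 3 (13.2%). The C57BL/6J mean had the sign of the NY1DD mean for all 4 genes, and so it did for 58.4% of all features. With no dye swap, the part of dye bias in these shared signs cannot be told apart from that of naloxone. In NY1DD, 3 of the 4 lay below 0 on all 3 arrays (14.9% of features without well median subtraction and 15.3% with it) and Laptm5 above 0 (13.6% and 14.5%), and nothing is read from these counts because that contrast chose the genes. Over all 6 arrays, Ikbkb and Nfkbib lay below 0 throughout (4.66% of features) and, with well median subtraction, Nfkbib and Cysltr1 did (4.45%). Laptm5 lay above 0 on all 6 in both cases (2.45% and 2.64% of features). All NY1DD arrays lay below all C57BL/6J arrays for Cysltr1 (4.20% of features) and, with well median subtraction, for Nfkbib and Cysltr1 (4.84%). All NY1DD arrays lay above all C57BL/6J arrays for Laptm5 (5.21% of features), and for 0 of the 4 with well median subtraction (5.44%). The counts over all 6 arrays and between strains also hold the NY1DD values that chose the genes, so nothing is read from them either. In NY1DD 0 features (0%) passed and 809 (8.35%) had an unadjusted p under 0.05, and for the difference between strains 0 (0%) passed and 436 (4.50%) had one.

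The genes whose 6 values ran most like those of each member were taken by Pearson correlation over the 6 arrays among 5856 other genes. For Ikbkb they were Emc9 (r = 0.994), Tmed7 (r = 0.992) and Ralyl (r = 0.990), whose NY1DD means lay between -0.18 and 0.00. The NY1DD mean of Ikbkb was -1.28, so these genes did not have ratios of its size. For Nfkbib they were Slc10a4 (r = 0.992), Slc30a9, a zinc transporter (r = 0.989), and Hfe, a regulator of iron uptake (r = 0.985). Slc30a9 was also close in size, with a root mean square difference of 0.11, but its r was 0.558 after well median subtraction. For Cysltr1 they were Pacs2 (r = 0.987), Mindy3 (r = 0.980) and Zbtb43 (r = 0.980), with r of 0.772, 0.734 and 0.967 after well median subtraction. For Laptm5 they were Ppp3ca, the catalytic subunit of the phosphatase calcineurin (r = 0.989), Synpr, a synaptic vesicle protein (r = 0.986), and B4galt3, a galactosyltransferase (r = 0.981). Their C57BL/6J means were -0.19, -0.22 and -0.19, against 0.27 for Laptm5, because correlation leaves out the level. Slc10a4 (0.43), Hfe (0.14), Mindy3 (0.22), Zbtb43 (0.30) and the Ikbkb neighbours (0.04 to 0.31) were above 0 in C57BL/6J, unlike their members. Slc30a9 and Pacs2 were below 0 there, like theirs. Of the 5856 genes, 160 had r over 0.9 with Ikbkb, 103 with Nfkbib, 21 with Cysltr1 and 45 with Laptm5.

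Of the genes that form the core of the NF-kappaB pathway, 6 of 16 listed were measured, and besides Ikbkb and Nfkbib the other 4 had NY1DD means between -0.17 and 0.34. In NY1DD 4 of the 6 were below 0 (median -0.12, against -0.02 over all features). In C57BL/6J 5 of 6 were (median -0.24, against -0.0007 over all features). Below 0 over all features were 5089 of 9685 in NY1DD and 4855 in C57BL/6J. The NY1DD count and median hold Ikbkb and Nfkbib, picked with their NY1DD means in view, so nothing is read from them. None of the 6 genes passed in any comparison. Ikbkg, the regulatory subunit NEMO that holds the IkB kinase complex together, had a mean log2 ratio of -0.06 ± 0.17 in NY1DD and 0.21 ± 0.37 in C57BL/6J (SD, n = 3). Nfkbia, the other inhibitor, read 0.78, -0.74 and -0.57 in NY1DD and -0.80, 0.79 and -0.74 in C57BL/6J, so it was high on 1 array of each strain. Nfkb2, a subunit of the non-canonical pathway, had 0.02 ± 0.25 in NY1DD and -0.22 ± 0.22 in C57BL/6J (SD, n = 3). Rela, the main transactivating subunit, read 0.83, 1.08 and -0.90 in NY1DD and 0.09, 0.22 and -4.16 in C57BL/6J, so its C57BL/6J mean of -1.28 rests on replicate 3.

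Upstream of the kinase, 13 of 35 listed genes were measured, and 0 passed. Below 0 were 9 in NY1DD (median -0.07) and 4 in C57BL/6J (median 0.09), against 5089 and 4855 of all 9685 features. Map3k7, the kinase TAK1 that activates IKK-beta, had 0.52 ± 0.32 in NY1DD and -0.09 ± 0.22 in C57BL/6J (SD, n = 3). The 2 paralogous F-box proteins that mark phosphorylated IkB for degradation differed: Btrc had 0.62 ± 0.34 and Fbxw11 -1.33 ± 1.30 in NY1DD (SD, n = 3), and Fbxw11 read -2.79 on replicate 1 alone against -0.33 and -0.86 on the other arrays. Skp1, their partner in the ubiquitin ligase, had -0.41 ± 0.40 in NY1DD and 0.28 ± 0.09 in C57BL/6J (SD, n = 3). Cyld, a deubiquitinase that damps the pathway, had 0.88 ± 0.97 in C57BL/6J (SD, n = 3, limma adjusted p = 0.706), from 1.18, 1.66 and -0.20 on the 3 arrays. Tradd, an adaptor of the TNF receptor, was below 0 on all 6 arrays, as were 4.66% of features. Its means were -0.44 ± 0.19 and -0.36 ± 0.56 (SD, n = 3) in NY1DD and C57BL/6J. In C57BL/6J Tradd read -0.03, -0.03 and -1.01, so its mean there rests on replicate 3. Among NF-kappaB target genes, 5 of 23 were measured, and 0 passed. Above 0 were 4 in NY1DD (median 0.10) and 3 in C57BL/6J (median 0.08), against 4596 and 4830 of all 9685 features. The 5 target genes include the anti-apoptotic Bcl2l1, with 0.11 ± 0.32 in NY1DD and 0.32 ± 0.37 in C57BL/6J (SD, n = 3). The mitochondrial superoxide dismutase Sod2 had 0.04 ± 0.41 in NY1DD and -0.05 ± 0.27 in C57BL/6J (SD, n = 3).

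**Figure D3:**
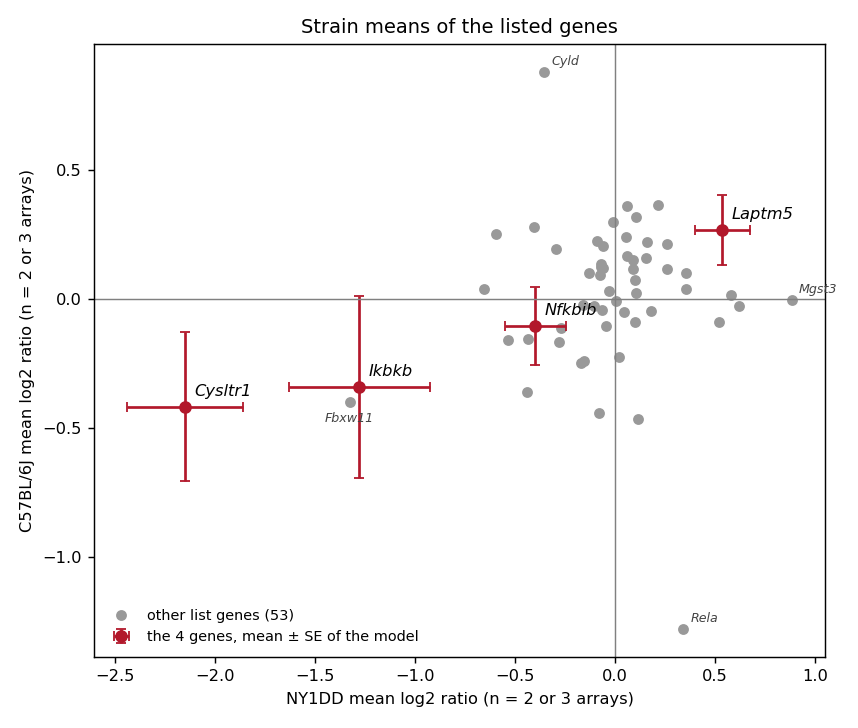
Mean log2 ratio in NY1DD (horizontal axis) and C57BL/6J (vertical axis) of the 57 measured genes of 7 lists, with the 4 genes in red (bars, SE of the model) and the rest in grey. Cysltr1 has the lowest NY1DD mean of the 57, at -2.15, and Rela the lowest C57BL/6J mean, at -1.28. Nothing is read from the place of Cysltr1, which was picked with its NY1DD mean in view.

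In the leukotriene list, 6 of 20 genes were measured, Cysltr1 included. In NY1DD 3 were above and 3 below 0 (median -0.17), and the same held in C57BL/6J (median 0.01). Above 0 over all features were 4596 of 9685 in NY1DD and 4830 in C57BL/6J. The NY1DD count and median hold Cysltr1, picked with its NY1DD mean in view, so nothing is read from them. Alox5, the lipoxygenase that starts leukotriene synthesis, had 0.10 ± 0.46 in NY1DD and 0.02 ± 0.22 in C57BL/6J (SD, n = 3). It read -0.12, -0.20 and 0.63 on the NY1DD arrays, so its mean above 0 there rests on replicate 3. Ltc4s, the synthase that makes the first cysteinyl leukotriene, had 0.16 ± 0.20 in NY1DD and 0.22 ± 0.11 in C57BL/6J (SD, n = 3). On NY1DD replicate 2 Ltc4s read -0.02. Mgst3, also in the list, read 1.55, -0.02 and 1.11 in NY1DD, and -0.81 and 0.81 on the 2 C57BL/6J arrays with a value. Abcc1, a transporter that exports the product of Ltc4s, had -0.44 ± 0.33 in NY1DD and -0.15 ± 0.55 in C57BL/6J (SD, n = 3). Gpr17, a receptor of oligodendrocyte precursors related to the leukotriene receptors, read -0.08, -1.72 and -0.16 in NY1DD and 0.61, 0.04 and -0.53 in C57BL/6J. The NY1DD mean of Gpr17, -0.66, rests on replicate 2, and it was -0.36 after well median subtraction. None of the 6 passed in any comparison.

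The prostanoid list, the other branch of arachidonic acid signalling, had 6 of 17 genes measured, and 0 passed. In each strain 4 were above 0 (medians 0.08 in NY1DD and 0.13 in C57BL/6J). Over all 9685 features, 4596 were above 0 in NY1DD and 4830 in C57BL/6J. Ptges, an inducible prostaglandin E synthase, had -0.59 ± 0.28 in NY1DD, below 0 on all 3 arrays, and 0.25 ± 0.95 in C57BL/6J (SD, n = 3), where replicate 3 alone was above 0. Tbxa2r, the thromboxane receptor, had 0.12 ± 0.19 in NY1DD and -0.46 ± 0.31 in C57BL/6J (SD, n = 3, limma adjusted p = 0.591), below 0 on all 3 C57BL/6J arrays. Ptgds, the prostaglandin D synthase of brain, had 0.06 ± 0.12 and 0.17 ± 0.56 (SD, n = 3).

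Among microglia and macrophage markers, 11 of 33 were measured, Laptm5 included. In NY1DD 7 were above 0 (median 0.06), in C57BL/6J 5 (median -0.005), and 0 passed in any comparison. Above 0 over all features were 4596 of 9685 in NY1DD and 4830 in C57BL/6J. The NY1DD count holds Laptm5, picked with its NY1DD mean in view, so nothing is read from it. The median of the list ran from -0.20 to 0.35 over the NY1DD arrays and from -0.08 to 0.12 over the C57BL/6J arrays, so the strains overlapped. Fcer1g, the Fc receptor gamma chain, read 0.29, 0.36 and 0.41 in NY1DD, and its C57BL/6J mean was 0.10 ± 0.27 (SD, n = 3). The complement genes C1qa and C1qb, which encode chains of one protein, had -0.08 ± 0.39 and 0.00 ± 0.17 in NY1DD and -0.44 ± 0.19 and -0.005 ± 0.11 in C57BL/6J (SD, n = 3). C1qa was below 0 on all 3 C57BL/6J arrays (limma adjusted p = 0.698). Tmem119, a marker that separates microglia from blood macrophages, had -0.54 ± 0.51 and -0.16 ± 0.18 (SD, n = 3), and read 0.01 on NY1DD replicate 3 and below 0 on the other arrays. Ctss, a lysosomal protease of microglia, had 0.18 ± 0.15 and -0.05 ± 0.36, and Ly86, a partner of innate immune receptors, -0.27 ± 0.06 and -0.11 ± 0.38 (SD, n = 3).

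The relatives of Laptm5, lysosomal membrane genes and its partners formed a list of 16, of which 12 were measured. Above 0 were 4 in NY1DD (median -0.07) and 7 in C57BL/6J (median 0.12), against 4596 and 4830 of all 9685 features. Laptm5 had the highest mean of the list in each strain, with or without well median subtraction. Nothing is read from its place in NY1DD, because it was picked with its NY1DD mean in view. In C57BL/6J its lead was small: with well median subtraction its mean was 0.28 (SE 0.12), against 0.25 for Laptm4b and 0.25 for Laptm4a. The paralogs Laptm4a and Laptm4b had -0.29 ± 0.29 and 0.26 ± 0.58 in NY1DD, and 0.19 ± 0.17 and 0.21 ± 0.12 in C57BL/6J (SD, n = 3). Lamp1, an abundant lysosomal membrane protein, had means of 0.24, -0.79 and 0.34 for its 3 probes in NY1DD and 0.19, 0.02 and 0.20 in C57BL/6J, so its probes did not go together in NY1DD. Nedd4, a ubiquitin ligase that sorts Laptm5 to lysosomes, had -0.07 ± 0.45 and -0.04 ± 0.13 (SD, n = 3), and 0 of the 12 passed.

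Neuron markers had medians of 0.11 in NY1DD and 0.01 in C57BL/6J (10 genes), astrocyte markers -0.11 and 0.09 (6 genes), oligodendrocyte markers 0.21 and 0.08 (5 genes) and endothelial markers -0.08 and 0.03 (5 genes), and 0 passed. In C57BL/6J 2 of the 10 neuron markers had an unadjusted limma p under 0.05, as did 671 of all 9685 features (6.93%). These markers were Snap25 of the synaptic release machinery (mean 0.64) and Gad1, which makes GABA (mean -0.95), of opposite sign. Of the blood markers, 0 of 10 were measured. The marker lists' part in the values of the 4 genes was not tested.

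**Figure D4:**
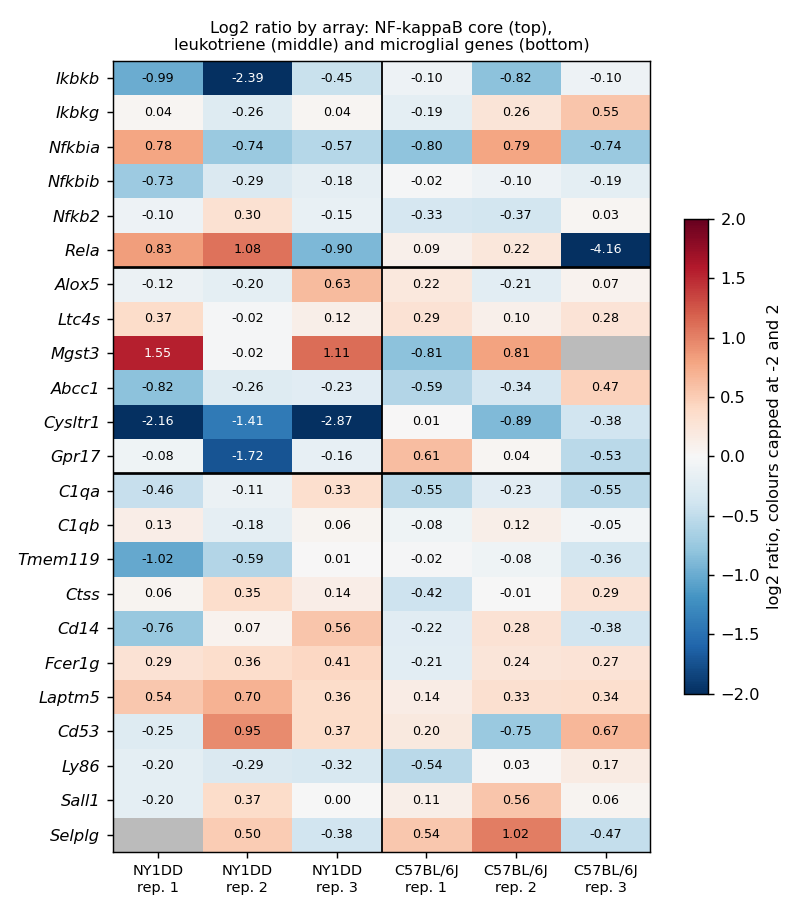
Log2 ratio on each of the 6 arrays (columns) for the measured genes of the NF-kappaB core, the leukotriene list and the microglia and macrophage markers (rows), with grey for a missing value. Cysltr1 is low on the 3 NY1DD arrays, where Alox5 reads -0.12, -0.20 and 0.63. Laptm5 is the only one of the 11 microglial genes above 0 on all 6 arrays. Cysltr1 and Laptm5 were picked with their NY1DD means in view.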

How the data were processed

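The deposited table of the authors holds natural log ratios (ln) of the 2 channels of each array, per the file's values: its lowest value is the natural log of 0.01. RNA was labelled directly with Cy5 and Cy3, per the labels' protocols. How the images were scanned, corrected, normalized and filtered: not given in the sources used here. Of 11532 spots, 30 control spots were left out, and 293 values at the lower limit were treated as missing. Values were converted to log2. A probe was kept where both strains had 2 or more usable arrays (11340 probes). Array medians were set to 0. Averaging the probes of each gene symbol gave 9685 features. Of 7906 probes with 1 symbol, 7894 matched RefSeq (GRCm38.p6) by gene number and 0 symbols differed.

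Strain means were estimated from all 6 arrays together in limma 3.58.1 under R 4.3.3. Two-sided p-values were adjusted by Benjamini-Hochberg across the 9685 features, and 0.05 was the threshold. SE and 95% intervals come from this model, which pools the spread of both strains. With strains fitted apart, the C57BL/6J SE was 0.19 for Ikbkb (0.35 pooled) and 0.20 for Cysltr1 (0.29 pooled). For Nfkbib it was 0.12 (0.15 pooled) and for Laptm5 0.13 (0.14 pooled). The limma adjusted p then ran from 0.679 to 0.849. The fit was tested on simulated data, with normal noise whose SD was drawn from the prior of the model itself. In the simulation 50 features were changed at each log2 size of 1, 2, 3 and 4. For the C57BL/6J mean the fit recovered 56% of those at size 1 and 92% of those at size 2. With many changed features the Benjamini-Hochberg cutoff is looser than in the deposited data, where 0 features passed. These shares therefore do not tell how often a single change of that size would be found here. The fit also called 13 unchanged features. Named genes are the 4 genes, measured genes of 7 lists and the 3 genes most correlated with each of the 4. The genes and lists were chosen with earlier results of these data known. Alternatives tried were no centring, well and plate medians, the limit kept, no filter, scaled arrays, single probes, a replicate block, strains apart and each array left out. Same-numbered arrays of the 2 strains had correlations of their deviations of -0.07, 0.06 and 0.02, so the numbers were not taken as pairs.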

Additional observations from a re-analysis of the deposited data

How the results depend on the processing

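The mean log2 ratios of Ikbkb, Nfkbib, Cysltr1 and Laptm5 kept their sign under all 22 alternatives in each strain, and so did the differences between strains under all 21. Several alternatives could not or could hardly move a mean, so these totals are not a measure of robustness. Single probes, a replicate block and strains fitted apart leave each member mean the same by design. Leaving out an array of the other strain, keeping the limit or dropping the filter changed a mean little. The NY1DD means ran from -1.69 to -0.72 for Ikbkb, from -0.51 to -0.18 for Nfkbib, from -2.52 to -1.55 for Cysltr1 and from 0.37 to 0.62 for Laptm5. The C57BL/6J means ran from -0.51 to -0.10, from -0.14 to -0.03, from -0.63 to -0.17 and from 0.21 to 0.35, and the smallest limma adjusted p of any of them was 0.594. The differences, NY1DD minus C57BL/6J, ran from -1.35 to -0.38 for Ikbkb, from -0.41 to -0.13 for Nfkbib, from -2.10 to -1.19 for Cysltr1 and from 0.08 to 0.39 for Laptm5. The number of features past the threshold was 0 under all alternatives in C57BL/6J and for the difference between strains. In NY1DD it ranged from 0 to 1 when arrays were left out with well median subtraction, a combination added after seeing the data, as was plate median subtraction: 1 probe without a gene symbol passed without NY1DD replicate 3 (chosen for mention after its value was seen). Unadjusted p under 0.05 was reached by 523 to 1122 features in NY1DD, 473 to 859 in C57BL/6J and 282 to 562 for the difference. With the replicate number as a block, 0 features passed in each comparison, and 2 of 6 arrays correlated best with the array of their own number. The member means (Ikbkb -1.28 in NY1DD and -0.34 in C57BL/6J) could not change, because each strain holds each replicate number once. Without single-channel intensities, how far each ratio is limited by weak signal is unknown.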
